A study of Mus musculus with 20 samples.

Results

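The cytosolic ribosomal protein genes of mouse liver were described in mice fed a high-fat diet with or without a maple syrup extract. Members were the genes whose symbol starts with Rpl or Rps followed by a digit, together with Rplp0, Rplp1, Rplp2 and Rpsa, without the S6 kinase genes, Rps19bp1 and pseudogenes. A gene counted only if a probe set of the array names it alone, and of several such probe sets the one of highest mean over the arrays was taken. The rule gave 49 of the 18193 named genes, 26 of the large and 23 of the small ribosomal subunit, read by 105 probe sets. A further 31 symbols of this kind occur only on probe sets that name several genes and were not used here.

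All mice were male C57BL/6J, an inbred laboratory strain, with a labelled age of 8 weeks. The MSXH group of 10 mice ate a high-fat diet with 45 kcal% fat and 0.05% of a maple syrup extract, and the HFD group of 10 mice ate the 45 kcal% fat diet without it. Both groups were first acclimated on a low-fat diet, then fed for 4 weeks, and after a fast of 16 h the livers were excised on day 30. Each mouse gave 1 expression array of liver RNA and is a biological replicate, numbered 1 to 10 within its diet, per the labels.

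The ribosome is the particle that makes all cellular protein. Its small subunit reads the mRNA and its large subunit joins the amino acids, and each ribosomal protein is needed in a fixed number of copies, so cells make these proteins together. Their mRNAs are among the most abundant of the cell and begin with a C followed by a run of pyrimidines, the TOP motif, through which the nutrient-sensing kinase mTORC1 and the RNA-binding protein LARP1 control their translation. In the liver, ribosome number is known to follow feeding and fasting.

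In the mouse genome a pyrimidine run is visible at the annotated start of some of these genes, though not of most. RefSeq promoter sequences of build GRCm38.p6, each from 250 bases before to 50 bases after an annotated transcription start, were found for 43 members with 51 starts. The 30-base windows below hold the last 15 bases before the start and the first 15 transcribed bases, 5′ to 3′ on the gene's strand, with the longest unbroken run of C and T in capitals. The first 6 are shown because the run holds the start, in genes described below. In Rpl7a the start itself is a T, so it lacks the C of the TOP motif at the annotated position. Rps15 and Rpl7l1 are shown as members whose annotated start has only a short run. The windows are at chr17:27635230-27635259 (minus strand) for Rps10, chr11:114668565-114668594 (plus) for Rpl38, chr3:90213634-90213663 (minus) for Rps27, chr7:141447636-141447665 (plus) for Rplp2, chr4:86857353-86857382 (minus) for Rps6 and chr2:26910792-26910821 (plus) for Rpl7a. Those of the contrasting pair are at chr10:80292416-80292445 (plus) for Rps15 and chr17:46782642-46782671 (minus) for Rpl7l1.
Rps10: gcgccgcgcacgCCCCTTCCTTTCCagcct
Rpl38: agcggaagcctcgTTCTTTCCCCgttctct
Rps27: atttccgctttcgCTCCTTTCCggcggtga
Rplp2: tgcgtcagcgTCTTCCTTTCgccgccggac
Rps6: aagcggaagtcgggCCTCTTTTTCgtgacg
Rpl7a: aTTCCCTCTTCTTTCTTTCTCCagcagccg
Rps15: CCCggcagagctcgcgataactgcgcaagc
Rpl7l1: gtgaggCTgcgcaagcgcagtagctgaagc

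A run of at least 8 pyrimidines lay in the window at 37.3% of the members' starts (19 of 51), against 12.0% of all 32851 promoters of the table. The share was 39.3% for the large and 34.8% for the small subunit. A C at the start itself with at least 4 pyrimidines after it occurred at 15.7% of the members' starts, against 2.51% of all promoters. Genes of the mitochondrial ribosome, which have their own set of proteins encoded in the nucleus, held the run at 12.0% of their 75 starts and the C with its pyrimidines at 0. Searched on both strands of the 300 bases, CCGGAAG, a motif of GABP and related ETS factors, occurred in 41.2% of the members' promoters, in 34.7% of the mitochondrial ones and in 8.86% of all. AAGATGGC, the motif of YY1, occurred in 7.84%, 16.0% and 2.75%, and the TATA-like letters TATAA in 27.5%, 13.3% and 24.9%. The first motif ends and the YY1 motif begins with AAG, so a pair of matches can overlap, and a match says only that the letters are there.

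Of the 49 members, 45 had a mean level at or above the median of all probe sets (a deposited log2 value of 6.505) and were tested, 23 of the large and 22 of the small subunit. The 4 below it were Rpl39l (6.41), Rpl14 (6.39), Rpl3l (6.39) and Rps16 (5.68). Rpl14 and Rps16 encode core ribosomal proteins and are also named on probe sets shared with other genes, which were not used here. Rpl3l is known from heart and skeletal muscle and Rpl39l from testis.

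Among the tested members the mean level ran from 6.80 to 12.79 in the large subunit (median 11.97) and from 7.24 to 13.47 in the small subunit (median 12.02), on the deposited log2 scale. Rps29, a small zinc-binding protein of the small subunit head, had 13.47, Rps28 12.96 and Rpl7a, a protein of the large subunit, 12.79. A probe set's level depends on its probes as well as on the RNA, so no order of the genes is read from these values. Of the 12 tested members with a mean below 11, 7 are also named on probe sets shared with other genes. The other 5 are Rpl22l1, Rpl27, Rpl41, Rpl7l1 and Rps4l.

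The deposited values hardly differ between arrays, so all differences below are in millionths of a deposited log2 unit, as the deviation from the gene's mean over the 20 mice, and cannot be read as fold changes. Over the 45037 probe sets that are not controls the median SD over the arrays was 9.33 millionths. Within diets, the members' SD had a median of 3.42 millionths, 3.55 in the large and 3.11 in the small subunit, against 14.8 over the 11728 genes tested. The range ran from 0.350 for Rps2, which lines the mRNA entry of the small subunit, to 1567 for Rps4l, a paralogue of Rps4x. Of the core proteins, Rpl12, at the base of the large subunit's stalk, had the largest SD, 209 millionths, and Rpl27 had 41.4.

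**Figure D1:**
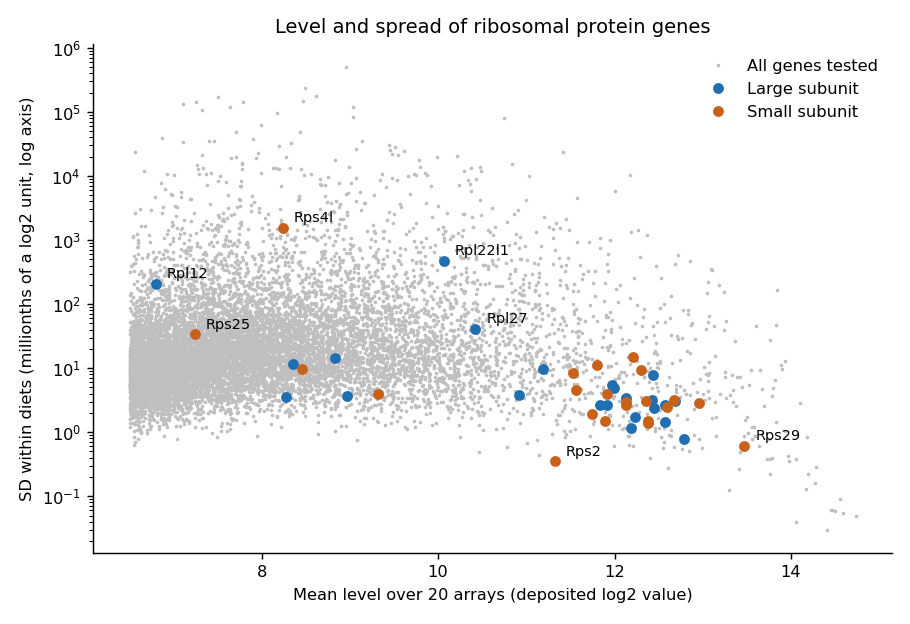
Mean deposited log2 level over the 20 arrays (horizontal axis) and SD within diets in millionths of a log2 unit (vertical log axis), 1 point a gene, for the tested members of each subunit over all other genes tested. Most members sit at the right and low, with Rps4l (SD 1567), Rpl22l1 (477) and Rpl12 (209) far above the rest.

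Some mice stood apart on these genes. For 29 of the 45 members the lowest of all 20 mice was HFD mouse 8 (12 members) or HFD mouse 9 (17 members), against 9.89% of all genes tested. For 25 members the highest was MSXH mouse 7 (12) or MSXH mouse 9 (13), against 7.88% of all genes. MSXH mice 7 and 9 lay above the gene's mean in 39 and 41 of the 45 members, and HFD mice 8 and 9 in 2 each. Next to them came MSXH mouse 4 with 38 at the high end, and HFD mouse 4 with 8 and HFD mouse 1 with 10 at the low end. The mice were picked after their values on these same genes were seen.

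The mean over each subunit's genes, with every gene scaled to unit SD over the 20 mice, showed the same mice at its ends. For the large subunit it ran from -0.307 through a median of 0.176 to 1.10 in MSXH mice, against -1.46, -0.126 and 0.716 in HFD mice. For the small subunit it ran from -0.316 through 0.353 to 1.09 in MSXH mice, against -1.49, -0.320 and 0.578 in HFD mice. The diets overlapped in both subunits, and the HFD median was exceeded by 7 of 10 MSXH mice for the large subunit and by 10 of 10 for the small. HFD mouse 8 had -1.30 in the large and -1.49 in the small subunit, and HFD mouse 9 had -1.46 and -1.45. The same mean over all genes tested was 0.164 in HFD mouse 8 and -0.0303 in HFD mouse 9, within the range over the 20 mice of -0.240 to 0.226. Over the 563 other genes with a mean level of at least 11, HFD mouse 8 was the highest of all mice (0.250) and HFD mouse 9 had -0.0596. That mean ran from -0.294 through a median of -0.0437 to 0.0949 in MSXH mice, against -0.183, 0.101 and 0.250 in HFD mice, and 0 of 10 MSXH mice exceeded the HFD median.

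The array's own RNA controls moved in part with these genes. The 3′ minus 5′ signal of actin, a sign of RNA integrity, deviated by 13.4 ± 53.1 millionths in MSXH mice and by -13.4 ± 51.6 in HFD mice (SD, n = 10 each). Its lowest value was in MSXH mouse 9 (-103.1) and its highest in HFD mouse 9 (107.3). The other mice that stood apart had 48.0 (MSXH mouse 7) and -12.7 (HFD mouse 8). Values near the ends also occurred in MSXH mouse 10 (101.5) and HFD mouse 3 (-90.7). The median correlation of this actin signal with the members over the 20 mice, diet means removed, was -0.313, against 0.0274 with all genes. The same signal of Gapdh deviated by 1.63 ± 10.9 millionths in MSXH mice and by -1.63 ± 6.47 in HFD mice. Its median correlation was -0.193 with the members, against 0.0680 with all genes. HFD mouse 9 also had the highest array median, 114.8 millionths above the mean over arrays, while HFD mouse 8 had -33.0. MSXH mouse 7 had the lowest array median (-61.6) and MSXH mouse 9 had 73.4. The median correlation of the array median was 0.112 with the members, against -0.0301 with all genes. The part of RNA integrity and of whole-array shifts in the results below was not tested.

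**Figure D2:**
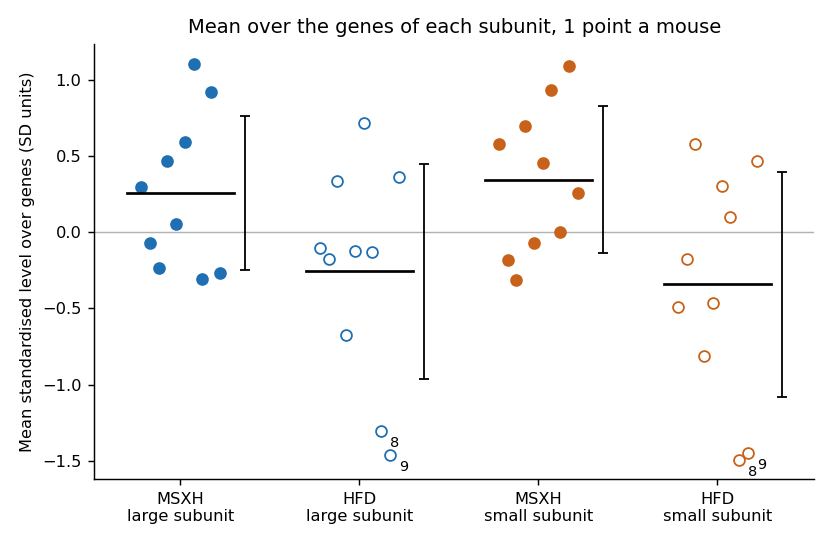
Mean standardised level (SD units) over the 23 large and 22 small subunit genes, 1 point a mouse, MSXH left of HFD in each subunit, with lines and bars for the mean and SD. HFD mice 8 and 9 lie lowest in both subunits, and most of the other HFD mice lie within the MSXH range.

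**Figure D3:**
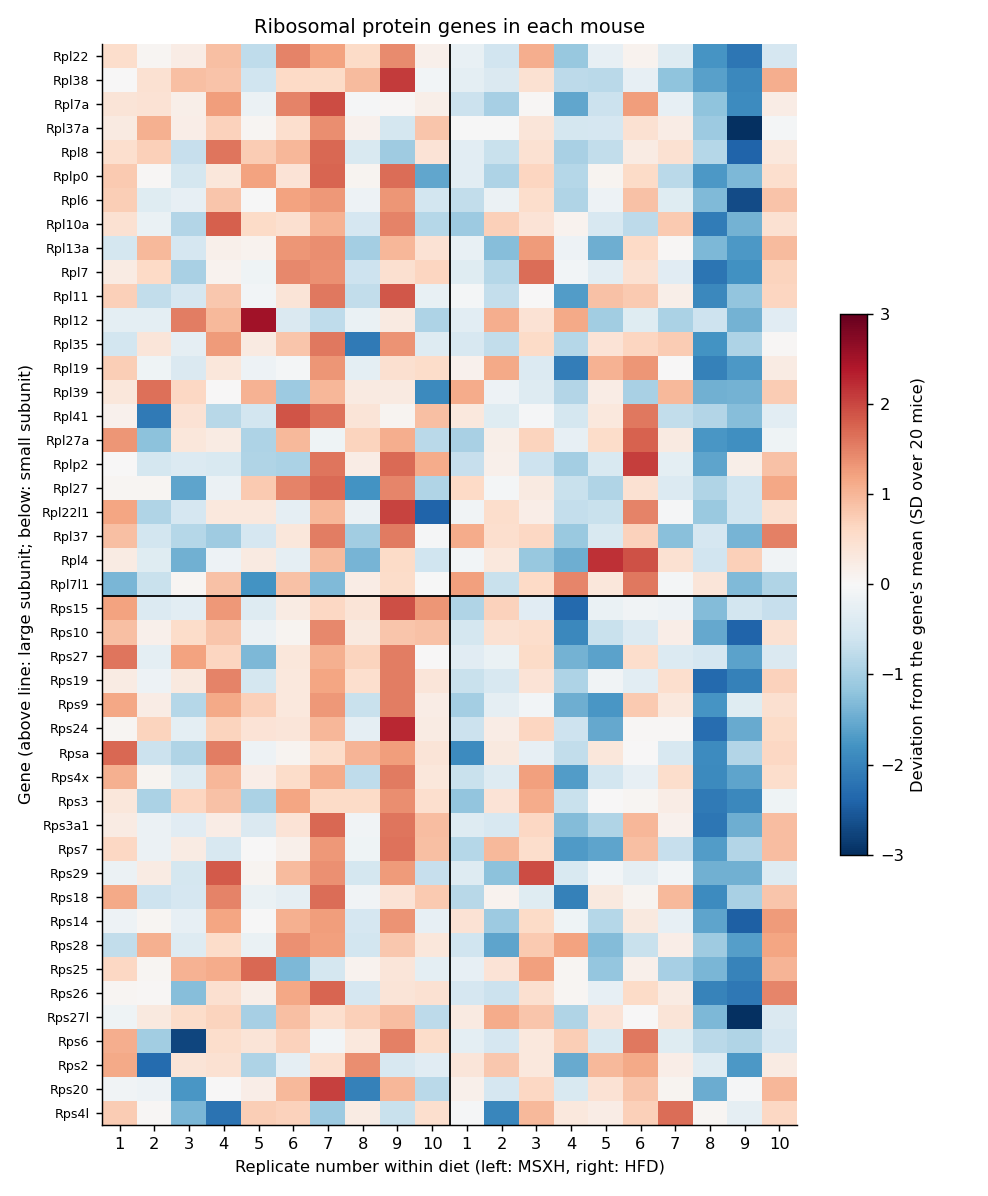
Deviation of each tested member (rows) from its mean in each of the 20 mice (columns, MSXH left of HFD), in SD over 20 mice. The columns of HFD mice 8 and 9 are low and those of MSXH mice 7 and 9 high over most rows of both subunits.

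The comparison of the diets asks how the extract relates to liver expression under high-fat feeding. No ribosomal protein gene differed past the threshold of adjusted p = 0.05 (limma with Benjamini-Hochberg adjustment over all 11728 genes, smallest adjusted p = 0.9998), and neither did any other gene (0.00%). The MSXH mean was above the HFD mean in 40 of 45 members, against 49.4% of all genes tested. As Hedges' g, the difference of means (MSXH minus HFD) over the pooled SD with a small-sample correction, the members had a median of 0.677, against -0.00692 over all genes. At an unadjusted p below 0.05 there were 9 members, 20.0% of those tested, all with the higher mean in MSXH mice, against 3.62% of all genes in either direction, 1.88% with the higher and 1.74% with the lower mean in MSXH mice. With limma's trended and robust variance there were 12 members (3.66% of all genes), and with an exact Wilcoxon rank-sum test 12 (3.41%). The 9 are Rps15, Rps10, Rps27, Rps19 and Rps24 of the small subunit and Rpl22, Rpl38, Rpl37a and Rpl8 of the large subunit. Members varied together from mouse to mouse, as described below, so these counts and those that follow are not counts of independent results.

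The counts rested in part on HFD mice 8 and 9. Without them, a setting chosen after seeing the data, 37 of 45 members had the higher mean in MSXH mice, the median g was 0.390, and 4 members had an unadjusted p below 0.05 (Rps15, Rps10, Rpl38 and Rps27), against 2.67% of all genes. When every array was shifted to a common median, 44 of 45 members had the higher mean in MSXH mice, but so had 91.1% of all genes, and 0 members had an unadjusted p below 0.05. Quantile normalization left 13 of 45 members varying at all, against 11212 of 11728 genes, with the higher mean in MSXH mice in 8 of the 13 and in 49.4% of all genes. In bulk liver, fewer cells of a type and less RNA per cell cannot be told apart.

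The median g was 0.460 over the large subunit (21 of 23 genes above 0) and 0.805 over the small subunit (19 of 22), and without HFD mice 8 and 9 it was 0.261 and 0.533. After arrays were shifted to a common median it was 0.343 and 0.349, against 0.294 over all genes, and with quantile normalization 0.211 on 9 large and 0.0107 on 4 small subunit genes. The 95% interval of g lay above 0 for 5 large and 8 small subunit genes and below 0 for none, against 1.71% above and 1.67% below over all genes. The difference between the subunits was not tested. The diets overlapped in every tested member, as they did in every gene tested (0.00% without overlap).

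**Figure D4:**
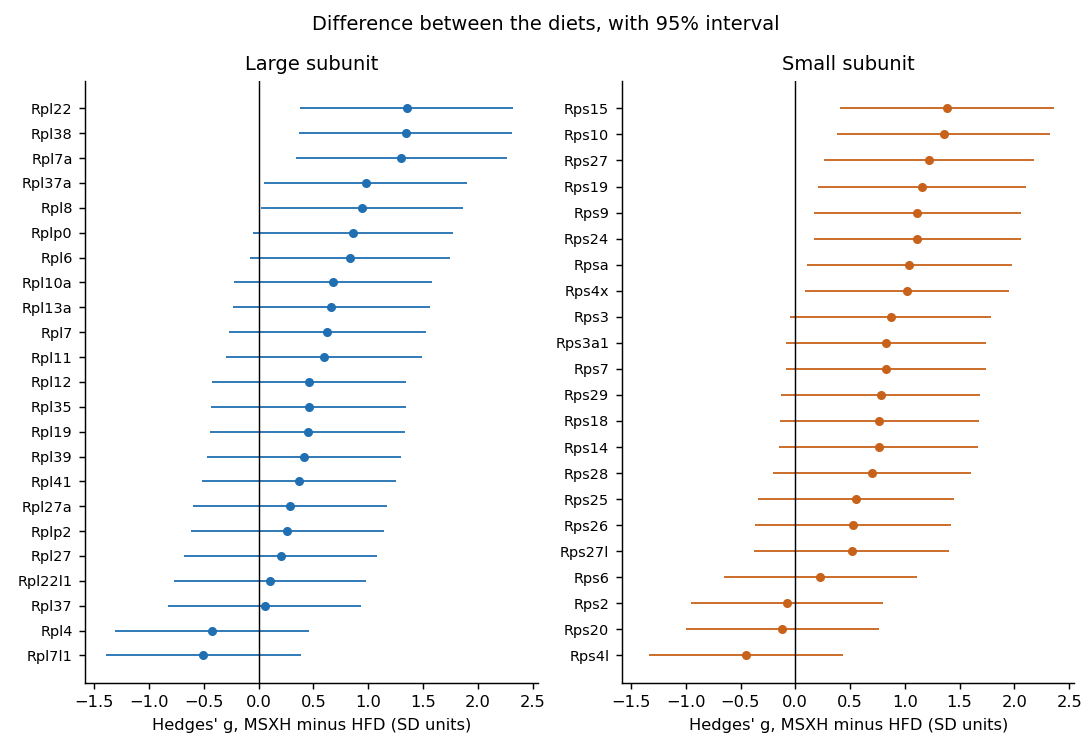
Hedges' g (MSXH minus HFD, SD units) of each tested member with its 95% interval, n = 10 mice per diet, large and small subunit in separate panels. Most points lie right of 0, the highest being Rps15 (1.38), and no gene passed the adjusted threshold.

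Other genes of similar level on the array had a median below 0. Among the 563 other genes with a mean of at least 11, the median g was -0.132, 37.7% had the higher mean in MSXH mice and 17 had an unadjusted p below 0.05 (3.02%). The 33 members at that level had a median g of 0.830, 30 of them above 0 and 8 at an unadjusted p below 0.05. Of the 105 probe sets of all members, 88 had the higher mean in MSXH mice (median g 0.528). The 105 include the chosen probe sets, and over all 18193 named genes, 1 probe set each, the share was 49.3%. Of the 24 tested members with several probe sets, 14 had the same sign in all of them, each with the higher mean in MSXH mice. The rest of the 24 had probe sets of both signs, and the matching share over other genes is not given here.

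From a chosen list of 7 small subunit genes of the mRNA channel and decoding head, 5 were tested, 3 with g above 0 and 2 below (median 0.872). The list is not complete for that site, and Rps9 and Rps29, described further on, are not on it. Rps15, a head protein close to the decoding site, ran from -2.25 through a median of 2.79 to 10.7 millionths in MSXH mice, against -13.0, -2.46 and 3.79 in HFD mice. Every MSXH mouse exceeded the HFD median, though the diets overlapped, and the difference was 6.58 millionths (g = 1.38, 95% interval 0.408 to 2.36, limma unadjusted p = 0.00544, adjusted p = 0.9998, n = 10 each). Both of its probe sets had this sign, and without HFD mice 8 and 9 its g was 1.24. Rps10, a head protein near the mRNA entry, ran from -0.594 through 2.50 to 5.21 millionths in MSXH mice, against -8.67, -1.67 and 1.87 in HFD mice. Here too every MSXH mouse lay above the HFD median, and the low end was HFD mouse 9. The difference was 4.19 millionths (g = 1.35, 95% interval 0.382 to 2.33, limma unadjusted p = 0.00916), with 5 of 6 probe sets of this sign. Without HFD mice 8 and 9 its g was 1.18.

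The other genes of that list were closer to 0 or below it. Rps3, which lines the mRNA entry and also acts in DNA repair, ran from -4.14 through 2.52 to 6.05 millionths in MSXH mice, against -9.24, -0.276 and 4.85 in HFD mice, with g = 0.872 and 2 of 3 probe sets of this sign. Rps2 ran from -0.784 through 0.0205 to 0.475 millionths in MSXH mice, against -0.585, 0.0955 and 0.386 in HFD mice. The HFD range lay within the MSXH range (g = -0.0793, 95% interval -0.956 to 0.798). Rps20, a head protein, ran from -30.0 through -0.676 to 30.2 millionths in MSXH mice, against -21.9, 1.68 and 14.6 in HFD mice. Its g was -0.117, and its other 3 probe sets had the opposite sign.

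The other 3 small subunit genes at an unadjusted p below 0.05 were Rps27, Rps19 and Rps24. Rps27, a zinc-binding protein needed for maturation of the subunit's rRNA, ran from -6.19 through 3.02 to 7.37 millionths in MSXH mice, against -7.38, -1.97 and 2.66 in HFD mice. The ranges overlapped, and the HFD median was exceeded in 9 of 10 MSXH mice (g = 1.22, 95% interval 0.266 to 2.18, limma unadjusted p = 0.0135). Without HFD mice 8 and 9 its g was 1.06. Rps19, the gene most often mutated in Diamond-Blackfan anaemia in humans, ran from -5.02 through 3.24 to 14.8 millionths in MSXH mice, against -22.6, -3.80 and 6.68 in HFD mice. The HFD median was again exceeded in 9 of 10 MSXH mice (g = 1.16, limma unadjusted p = 0.0138), and without HFD mice 8 and 9 its p was 0.0549. Rps24, another gene of that disease, ran from -3.20 through 4.02 to 24.0 millionths in MSXH mice, against -24.1, -3.14 and 6.90 in HFD mice. The ends were set by MSXH mouse 9 and HFD mouse 8 (g = 1.12, limma unadjusted p = 0.0170, all 6 probe sets of this sign), and without HFD mice 8 and 9 the p was 0.0711.

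Rps6 is the classic substrate of the S6 kinases downstream of mTORC1. It ran from -26.5 through 4.45 to 14.7 millionths in MSXH mice, against -8.78, -3.95 and 15.3 in HFD mice. The lowest of all mice was in MSXH and the difference was small (g = 0.230, 95% interval -0.650 to 1.11, limma unadjusted p = 0.595), while its other probe set gave g = 1.20. Rpsa, which is also the laminin receptor, ran from -1.95 through 1.02 to 3.74 millionths in MSXH mice, against -4.07, -0.794 and 1.36 in HFD mice. It had 8 of 10 MSXH mice above the HFD median (g = 1.04, 95% interval 0.107 to 1.97, limma unadjusted p = 0.0608). Rps27a, which only shared probe sets name, was not used here.

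The remaining 7 small subunit genes, Rps7, Rps9, Rps14, Rps18, Rps26, Rps28 and Rps29, had g between 0.528 and 1.12 and limma unadjusted p between 0.0673 and 0.467. Rps9, a protein of the mRNA entry, ran from -1.47 through 0.898 to 2.67 millionths in MSXH mice, against -3.06, -0.548 and 1.35 in HFD mice. It had the highest g of these (95% interval 0.173 to 2.06), with 2 of 3 probe sets of this sign. Rps7, which also binds MDM2, ran from -1.61 through 0.683 to 5.34 millionths in MSXH mice, against -5.62, -2.54 and 3.23 in HFD mice. Every MSXH mouse exceeded the HFD median, with g = 0.830 and both probe sets of this sign. Rps29 ran from -0.458 through 0.107 to 1.20 millionths in MSXH mice, against -0.948, -0.253 and 1.27 in HFD mice, with g = 0.780 and 3 of 3 probe sets of this sign. Of these genes, Rps18, Rps28 and Rps26 had g of 0.769, 0.700 and 0.528, and Rps14 had 0.760.

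In the large subunit, the stalk recruits the elongation factors. Rplp0, the protein that anchors it, ran from -2.41 through 0.582 to 2.68 millionths in MSXH mice, against -2.65, -0.869 and 0.982 in HFD mice. Of the MSXH mice, 9 lay above the HFD median, with g = 0.860 (95% interval -0.0558 to 1.78). Rplp2, its acidic partner, ran from -2.22 through -0.473 to 3.92 millionths in MSXH mice, against -3.68, -0.888 and 4.79 in HFD mice, and g was 0.262. The pair correlated over the 20 mice at 0.366 with diet means removed. Rpl11, which with Rpl5 forms the particle that binds MDM2 when ribosome assembly fails, ran from -2.06 through 0.408 to 5.15 millionths in MSXH mice, against -5.37, -0.0815 and 2.46 in HFD mice. The HFD median was exceeded in 5 of 10 MSXH mice, and g was 0.597. Rpl5 and Rplp1, which have no probe set to themselves, were not used here.

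From a chosen list of 10 genes of the large subunit's peptide exit tunnel, 5 were tested, 4 with g above 0 and 1 below (median 0.447). Rpl22, whose protein also binds viral and cellular RNAs outside the ribosome, ran from -1.56 through 1.15 to 3.10 millionths in MSXH mice, against -4.51, -0.918 and 2.26 in HFD mice. With 9 of 10 MSXH mice above the HFD median it had the highest g of the large subunit (1.35, 95% interval 0.379 to 2.32, limma unadjusted p = 0.0230), and all 3 probe sets had this sign. Without HFD mice 8 and 9 its g was 1.15 and its p 0.0950. Rpl4, whose loop narrows the tunnel, ran from -3.85 through -0.560 to 2.50 millionths in MSXH mice, against -3.90, 0.289 and 5.78 in HFD mice. Its g was -0.423 (95% interval -1.31 to 0.463), with 4 of 10 MSXH mice above the HFD median. Rpl19, Rpl35 and Rpl39 had g of 0.447, 0.456 and 0.414.

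Elsewhere in the large subunit, Rpl38, which in mouse embryos is needed to translate a set of Hox mRNAs, ran from -2.26 through 2.24 to 7.99 millionths in MSXH mice, against -7.32, -2.34 and 4.13 in HFD mice. Every MSXH mouse lay above the HFD median (g = 1.34, 95% interval 0.373 to 2.31, limma unadjusted p = 0.00903), and without HFD mice 8 and 9 its g was 1.11. Rpl7a ran from -0.151 through 0.259 to 1.80 millionths in MSXH mice, against -1.74, -0.597 and 1.16 in HFD mice, and again every MSXH mouse exceeded the HFD median. Its g was 1.30 (95% interval 0.337 to 2.27), yet its limma unadjusted p was 0.155, because limma replaces its SD of 0.770 millionths by a moderated 1.58. With an exact Wilcoxon rank-sum test its unadjusted p was 0.00893. Such a gap between g and limma is built into genes of small spread, and the moderated SD exceeded 1.5 times the gene's own for Rps29, Rpl7a, Rpl19 and Rps2.

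Rpl37a, a zinc-binding protein, ran from -4.52 through 3.27 to 12.0 millionths in MSXH mice, against -29.6, -0.383 and 3.93 in HFD mice. The lowest mouse was HFD mouse 9 (g = 0.978, limma unadjusted p = 0.0341, all 3 probe sets of this sign), and without HFD mice 8 and 9 the p was 0.0655. Rpl8, a protein near the peptidyl transferase centre, ran from -6.47 through 3.71 to 10.5 millionths in MSXH mice, against -14.6, -2.99 and 2.75 in HFD mice. HFD mouse 9 was again the lowest (g = 0.944, limma unadjusted p = 0.0428), and without HFD mice 8 and 9 the p was 0.140. Rpl37 had almost no difference, from -14.7 through -3.72 to 21.8 millionths in MSXH mice, against -19.6, 0.395 and 21.0 in HFD mice (g = 0.0536, 95% interval -0.823 to 0.930).

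The remaining 6 core genes of the large subunit, Rpl7, Rpl10a, Rpl13a, Rpl27, Rpl27a and Rpl41, had g between 0.200 and 0.677 and limma unadjusted p between 0.139 and 0.639. Rpl13a, which in human monocytes also acts outside the ribosome to silence inflammatory mRNAs, ran from -3.20 through 0.905 to 4.35 millionths in MSXH mice, against -5.37, -0.600 and 4.02 in HFD mice. The ranges overlapped (g = 0.665), and 2 of its 4 probe sets had the opposite sign. Rpl10a ran from -4.43 through 2.37 to 9.08 millionths in MSXH mice, against -10.6, -0.964 and 3.99 in HFD mice (g = 0.677). Rpl27 ran from -72.5 through 2.36 to 68.8 millionths in MSXH mice, against -36.8, -9.65 and 46.6 in HFD mice, the MSXH range holding the whole HFD range (g = 0.200). Rpl41, the smallest ribosomal protein, had g = 0.370, with 2 of 4 probe sets of this sign.

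Of the paralogues, 4 were tested and 2 had g above 0, with a median of -0.173. Rpl7l1, a relative of Rpl7, ran from -6.69 through 0.0707 to 3.27 millionths in MSXH mice, against -4.93, 1.27 and 5.94 in HFD mice. It had the lowest g of all tested members (-0.504, 95% interval -1.39 to 0.386), and 2 of its 3 probe sets had this sign. Rps4l ran from -3472 through 213 to 1205 millionths in MSXH mice, against -3063, 429 and 2623 in HFD mice. The MSXH range reached lower and the HFD range higher (g = -0.447, 95% interval -1.33 to 0.440). Rpl22l1, which in mice is held down by its relative Rpl22, ran from -1122 through 29.7 to 939 millionths in MSXH mice, against -514, -34.1 and 695 in HFD mice, and g was 0.102. Rps27l, a p53 target, ran from -11.3 through 6.01 to 10.8 millionths in MSXH mice, against -34.5, 1.57 and 12.9 in HFD mice, with g = 0.516.

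The other 2 paralogues lay below the level filter and were not tested. Rpl3l ran from -6.17 through -2.68 to 4.35 millionths in MSXH mice, against -4.67, 2.13 and 9.32 in HFD mice (g = -0.891, 95% interval -1.81 to 0.0281). Rpl39l ran from -25.1 through 4.68 to 15.7 millionths in MSXH mice, against -32.0, -1.11 and 15.1 in HFD mice (g = 0.484).

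On the values as deposited, ribosomal protein genes varied together from mouse to mouse within the diets. Over the 20 mice, with each diet's mean removed, the 990 pairs of members had a median Pearson r of 0.434, and 91.4% of pairs were above 0. Over the pairs of all genes tested the median was 0.0126, and among other genes with a mean of at least 11 it was 0.0232. Different probe sets of the same member, at any level, had a median r of 0.439 over 115 pairs, close to the median between members. These correlations are descriptions, since all pairs share the same 20 arrays and whatever shifts an array as a whole.

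The medians within and between the subunits lay close together. The median r was 0.418 within the large subunit (253 pairs), 0.482 within the small subunit (231 pairs) and 0.424 between them (506 pairs). Without HFD mice 8 and 9 these were 0.296, 0.356 and 0.298. With quantile normalization, which left 9 large and 4 small subunit genes varying, they were -0.00780, 0.159 and 0.135. Almost no correlation was then left within the large subunit. In HFD mice alone the medians, in the same order, were 0.561, 0.565 and 0.555, and in MSXH mice alone 0.338, 0.375 and 0.329. A further setting took 1 probe set without an _x_at, _s_at or _a_at suffix where a gene has one, all of these suffixes being treated alike. The medians were then 0.367 within the large subunit, 0.261 within the small and 0.326 between them. The small subunit's median was thus the lowest there, not the highest. Of the probe sets chosen for the 45 tested members, 34 carry a suffix (14 _x_at, 2 _s_at and 18 _a_at). Members and the 76 mitochondrial ribosomal protein genes had a median r of -0.0516, while the mitochondrial genes among themselves had 0.225.

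Among single pairs, Rpl7 and Rps26 had the highest r (0.898), followed by Rpl27 and Rps20 (0.896) and by Rpl7 and Rpl13a (0.876). The probe sets of these genes all carry a suffix, _a_at for Rps26 and _x_at for the others. Whether probes that also match another gene have a part in these pairs was not tested. The lowest was between Rpl12 and Rpl4 (-0.338). In the large subunit Rpl6 and Rpl11 had the highest median r with the other members (0.652 and 0.602), and Rpl12 and Rpl7l1 the lowest (-0.0195 and 0.0536). Rpl6 ran from -1.56 through 1.05 to 3.75 millionths in MSXH mice, against -7.68, -0.758 and 2.51 in HFD mice, with g = 0.837. Rpl12 ran from -195 through -52.0 to 526 millionths in MSXH mice, against -299, -74.0 and 239 in HFD mice, with g = 0.460. In this gene each diet had mice beyond the other's range, and its level of 6.80 lies close to the filter.

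In the small subunit the highest median r was that of Rps3a1 and Rps4x (0.631 and 0.610), and the lowest that of Rps4l and Rps25 (-0.00603 and 0.257). Rps3a1, which binds at the mRNA exit, ran from -1.16 through 0.605 to 4.49 millionths in MSXH mice, against -5.70, -1.15 and 2.59 in HFD mice, with g = 0.831. Rps4x, encoded on the X chromosome, ran from -1.20 through 0.680 to 2.42 millionths in MSXH mice, against -2.98, -0.720 and 1.90 in HFD mice, with g = 1.02. Its other probe set had g = -0.682. Rps25, needed for translation from certain viral internal entry sites, ran from -46.0 through 8.08 to 59.1 millionths in MSXH mice, against -68.4, -3.01 and 42.3 in HFD mice, with g = 0.556. Rpl12 and Rps25, both with low levels on the array, correlated with each other at 0.761.

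**Figure D5:**
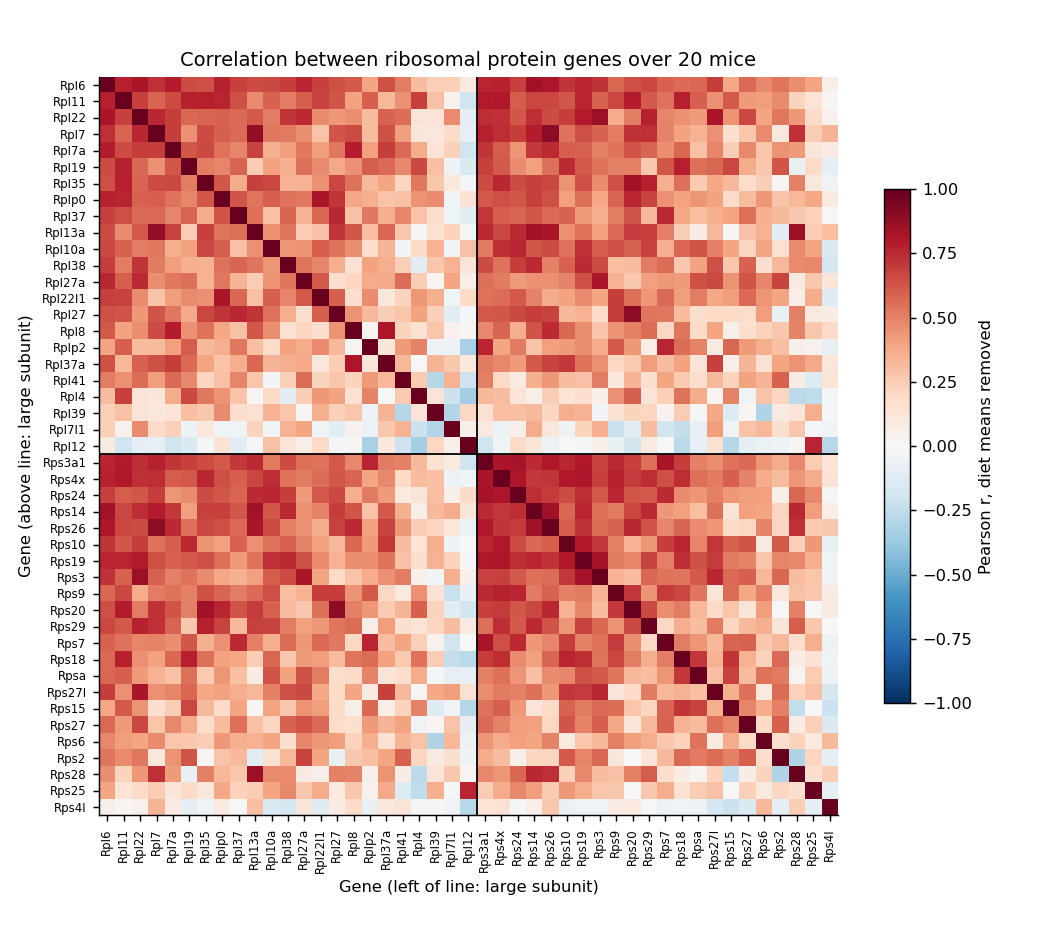
Pearson r between the 45 tested members over 20 mice with diet means removed, large subunit left of and above the line. Most cells are above 0 in all 3 blocks (medians 0.418, 0.482 and 0.424), with pale rows for Rpl12, Rpl7l1 and Rps4l.

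The members with and without the pyrimidine run were set side by side. Of the tested members with a promoter, the 18 with a run of at least 8 had a median g of 0.522 and the 21 without one 0.830. Their median r with the other members was 0.471 and 0.473. The members came from 17 chromosomes, with at most 7 on any of them.

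Other genes of the translation machinery were read from lists of known members. Fau, which encodes the small subunit protein Rps30 fused to a ubiquitin-like protein, had g = 0.715 (95% interval -0.189 to 1.62) and a median r of -0.0958 with the members. Rack1, which has no probe set to itself, was not used here. Of 6 genes on the elongation factor list, 4 had g above 0 (median 0.249, median r with members 0.282). Eef2, which moves the ribosome along the mRNA, had g = 0.925 (95% interval 0.00276 to 1.85, limma unadjusted p = 0.0930). Eef1e1, which is on the list by its name and is not itself an elongation factor, had -0.396. Of 24 initiation factor genes, 15 had g above 0 (median 0.197, median r 0.0512), with Eif3f at 1.39 and Eif4b at 0.535. None of these genes passed the adjusted threshold, nor did any of the lists that follow.

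The genes that build and control ribosomes had medians near 0. Ribosome assembly and nucleolar genes had 20 of 38 above 0 (median g 0.0145), with Utp20 at -0.785 and Nhp2 at 0.721. RNA polymerase I and its regulators, which make the rRNA, had 6 of 14 above 0 (median -0.0223), and Taf1d (1.27, limma unadjusted p = 0.00968) and Polr1d (0.936, limma unadjusted p = 0.0398) had the smallest p. The mTORC1 and S6 kinase list had 7 of 23 above 0 (median -0.0654). Rheb, the small GTPase that activates mTORC1, had g = -1.34 (95% interval -2.31 to -0.373, limma unadjusted p = 0.00515), and Larp1 had -0.740. Genes of ribosomal stress and p53 had 5 of 7 above 0 (median 0.0679), with Phlda3 at 0.945 and Mdm4 at 0.562. The mitochondrial ribosomal protein genes had 21 of 76 above 0 (median -0.166), with Mrpl1 at -0.902 and Mrpl52 at -0.882. Their g reached 0.960 at the high end, and the 95% interval lay above 0 for 1 gene and below 0 for 0.

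All 11 hepatocyte markers tested had levels from 11.42 to 14.74, as the label liver calls for, with 5 of 11 above 0 in g (median -0.00429). Kupffer cell and macrophage markers had 3 of 12 above 0 (median -0.136, with Clec4f at -0.323 and Csf1r at -0.282). Their mean scaled level ran from -1.98 to 1.83 in MSXH mice and from -0.923 to 1.50 in HFD mice, and their median r with the members was 0.306. Endothelial markers had 9 of 10 above 0 (median 0.454, with Dnase1l3 at 0.822 and Kdr at 0.567), a mean scaled level from -0.937 to 0.690 in MSXH mice and from -0.684 to 0.618 in HFD mice, and a median r of 0.116 with the members. Stellate cell and collagen markers had 6 of 8 above 0 (median 0.120), from -1.36 to 1.52 in MSXH mice and from -0.855 to 0.854 in HFD mice. Red blood cell markers had 2 of 3 above 0 (median 0.166, with Bpgm at 0.981), and bile duct markers 1 of 2 (median 0.0462). Of the 10 lymphocyte markers on the array 9 lay below the filter, and the other, Cd3e, had g = -0.274. The part of these cell types in the members' values was not tested.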

How the data were processed

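Liver RNA of 20 mice was measured on 1 Affymetrix array each. Per the labels' protocols, the authors made biotin-labelled RNA with a 3′ IVT kit, so the signal comes mainly from transcript 3′ ends. The deposited values were taken as log2 levels of 45101 probe sets (5.20 to 14.96). How they were normalized and summarised is not stated in the labels, and the compression between arrays makes differences unusable as fold changes. Signal over background is unknown, and precision is limited by the number of arrays.

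Without 64 controls, 34945 probe sets name 1 gene in the platform annotation, 932 several and 9160 none. Each of 18193 genes was represented by its highest probe set, and genes under the median of 6.505 were left out. The fit used limma 3.58.1 (R 4.3.3) on all 11728 genes, MSXH minus HFD, with Benjamini-Hochberg adjustment. The procedure was tested on simulated data. Correlations were Pearson r over 20 mice with diet means removed. No pair of arrays held identical values.

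The members, gene lists and tests were chosen with earlier results of these data known. Named members were the 3 highest and 3 lowest g and the 2 highest and 2 lowest median r in each subunit, all paralogues, and a fixed set of stalk, 5S-particle and signalling genes (Rplp0, Rplp1, Rplp2, Rpl5, Rpl11, Rps6, Rpsa, Rps27a). Fau, Rack1 and up to 2 genes of each other list with the smallest p were added, though not all of these are named above. Members at an unadjusted p below 0.05, the remaining tunnel and head genes and single pairs were named after their values were seen. Alternatives covered scaling, the filter, the probe set, the variance model, array weights, a Wilcoxon test, the replicate number as a block and each array left out. Figures used matplotlib 3.10.9 (Python 3.11.15).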

Additional observations from a re-analysis of the deposited data

Results flagged for a closer look

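Over the 49 members and 28 other genes named, each in both diets, 1 mouse lay far from the others of its diet in 6 of 154 sets of 10 mice, where chance gives about 5%, or 7.7 sets. Each value is the gap to the next mouse as a share of that diet's range. HFD mouse 9 was low for Rpl37a (0.604) and for Rpl8 (0.501). HFD mouse 3 was high for Rps29 (0.595) and MSXH mouse 9 was high for Rps24 (0.494). Of the members below the level filter, MSXH mouse 8 was low for Rps16 (0.514) and MSXH mouse 10 for Rpl39l (0.488).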

How the results depend on the processing

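No gene passed the adjusted threshold under any alternative or with any 1 mouse left out. Against 425 genes at an unadjusted p below 0.05, there were 780 with no filter, 46 after shifting arrays to a common median, 126 after quantile normalization, 197 with a filter at the 75th percentile and 599 with array weights, and the filters and quantile normalization also change how many genes are tested. Against 9 members at that level, there were 0 after shifting arrays to a common median, 1 of 13 with quantile normalization, 15 with array weights and 4 without HFD mice 8 and 9, a setting added after seeing the data. Without 1 mouse the count ran from 7 to 11. The large subunit's median g of 0.460 was 0.211 with quantile normalization (9 genes) and 0.261 without HFD mice 8 and 9, and ran from 0.377 (without HFD mouse 9) to 0.716 (without MSXH mouse 8). The small subunit's 0.805 was 0.349 after that shift, 0.0107 with quantile normalization (4 genes) and 0.533 without HFD mice 8 and 9, and ran from 0.678 to 0.970 without 1 mouse. Array medians spanned 176 millionths, more than most members vary, and after shifting arrays to a common one the median g of all genes became 0.294. The median correlation within the large subunit fell to -0.00780 with quantile normalization, within the small subunit it was 0.159 and between them 0.135. With probe sets without an _x_at, _s_at or _a_at suffix it was 0.367 in the large and 0.261 in the small subunit, and 0.326 between them. Without 1 mouse these medians ran from 0.375 to 0.447, from 0.416 to 0.499 and from 0.383 to 0.457. For changes other than in the number of genes or mice the cause was not tested.

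The labels give no pairing by replicate number. Mice sharing a number had deviations that correlated at -0.133 to 0.369 (mean 0.0530), and for 2 of 20 arrays the best match was the same number. In the fit with a replicate block, 0 genes changed, 501 genes and 8 members had an unadjusted p below 0.05, and the medians of g, which use no block, were the same (0.460 and 0.805).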
